A study of Mus musculus with 12 samples.

Results

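The p53 pathway was followed here through 33 genes that were chosen by name. They are *Trp53*, which encodes p53, its 2 main partners *Mdm2* and *Mdm4*, and 30 genes described as transcriptional targets of p53. Whether p53 drives each of these 30 in this mouse line was not tested. The count table held 55487 genes, and all 33 had enough counts to be among the 13581 genes tested. The cells were im-TEC, a conditionally immortalized mouse tubular epithelial line that carries SV40 large T antigen, a viral protein that binds p53. Every group shared the same history: the line was kept at 33 °C with interferon gamma at 10 ng/mL, which keeps large T switched on, and then grown for 7 days at 37 °C without it before seeding. There were 4 groups of 3 libraries, each named for its treatment, and the time was 48 h in every group. The controls had neither agent, 1 group had TGFβ at 10 ng/mL, 1 had 5-amino-1-methylquinolinium at 50 µM, which inhibits NNMT (NNMTi, called the inhibitor below), and 1 had both (the combined group). NNMT is nicotinamide N-methyltransferase, an enzyme that methylates nicotinamide, and TGFβ is the cytokine used to drive fibrotic change in tubular cells. RNA was read as 3′ tags, 1 read per transcript end, so levels are given as CPM, counts scaled to a common library depth, and can be compared between genes without a length correction. The labels do not say whether the 3 libraries of a group came from separate cultures, so a p-value here sets a difference only against the spread of these libraries, which may be technical.

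p53 is a transcription factor that is held at a low level by Mdm2, a ubiquitin ligase that marks it for destruction, and by Mdm4, a relative of Mdm2 that covers its activation domain. DNA damage and other stress release p53, which then raises genes for cell cycle arrest, DNA repair, metabolism and cell death, and also *Mdm2* itself, which closes the loop. Active large T antigen binds p53 and blocks it, so basal target levels in such a line need not be those of a normal tubule cell. The sequenced cells had first spent 7 days at 37 °C, the restrictive temperature for large T, without interferon gamma. How much active large T was left in them is not known from these data. In the injured kidney, p53 activity in tubular cells is known for its part in cycle arrest, senescence and the response to TGFβ.

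p53 binds a pair of 10-base half-sites, the DNA by which a gene is usually recognised as a direct target. The sequences around half-site matches before the starts of 6 member genes are therefore shown here. RefSeq promoter windows of 250 bases before to 50 bases after the start (build GRCm38.p6) were on hand for 25 of the 33 members; *Pmaip1*, *Trp53inp1*, *Rrm2b*, *Tnfrsf10b*, *Ddb2*, *Perp*, *Xpc* and *Zmat3* were not among them. At least 1 exact match to the p53 half-site consensus, which reads the same on both strands, lay in a window of 10 of the 25 (40%), against 9.55% of all 27025 genes with a window. The matches of 9 of the 25 (36%) lay wholly upstream of the start, against 8.2% of all genes. Those of *Ei24*, *Aen* and *Polk*, beginning 10, 121 and 231 bases before the start, are not shown. No member window held 2 exact half-site matches at most 13 bases apart, the arrangement of a full site, which 0.074% of all genes had. Only exact matches were searched, so full sites with mismatches would have been missed. The members were named as known p53 targets, so these shares are a description. A match says nothing of binding, and the well-known sites of *Mdm2* lie in its first intron, outside these windows. In the stretches below, read 5′ to 3′ on the strand of the gene, capitals mark the 10 matched bases.
Trp53, chr11:69580269-69580308, + strand, match beginning 75 bases before the start: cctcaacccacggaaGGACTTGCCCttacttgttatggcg
Mdm2, chr10:117710920-117710959, - strand, 186 bases before: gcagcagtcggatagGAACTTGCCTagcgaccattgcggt
Ccng1, chr11:40755447-40755486, - strand, 185 bases before: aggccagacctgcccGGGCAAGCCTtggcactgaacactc
Bax, chr7:45467075-45467114, - strand, 201 bases before: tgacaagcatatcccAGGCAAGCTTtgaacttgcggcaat
Sesn1, chr10:41887251-41887290, + strand, 173 bases before: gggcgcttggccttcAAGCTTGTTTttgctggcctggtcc
Rps27l, chr9:66946188-66946227, + strand, 210 bases before: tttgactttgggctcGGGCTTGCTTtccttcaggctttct
Rps27l, chr9:66946291-66946330, + strand, 107 bases before: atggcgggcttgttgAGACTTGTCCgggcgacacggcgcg
All of these lie in the flank before the annotated start and in no annotated transcript of the same gene. Transcripts of other genes were not checked. The 6 genes shown did not move as a group. In TGFβ, *Bax* and *Rps27l* rose, *Sesn1* fell, and *Trp53*, *Mdm2* and *Ccng1* did not pass the test, as given with their values below. *Ei24*, *Aen* and *Polk*, whose upstream matches are not shown, did not pass the test with TGFβ either.

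**Figure D1:**
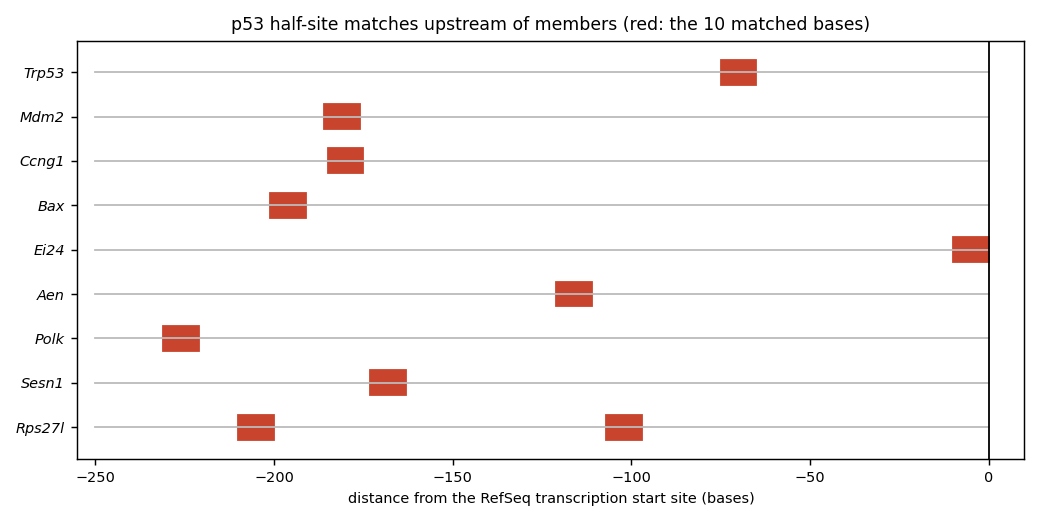
Position of the p53 half-site matches (red blocks of 10 bases) in the 250 bases before the RefSeq start site of 9 members, with distance from the start in bases on the x axis. *Rps27l* carried 2 matches, at 210 and 107 bases before the start, and the other 8 genes carried 1 each.

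TGFβ alone moved p53 targets in both directions. Of the 33 members, 4 rose (*Pmaip1*, *Bax*, *Fas* and *Rps27l*) and 10 fell (*Bbc3*, *Trp53inp1*, *Sesn1*, *Sesn3*, *Gdf15*, *Ephx1*, *Zmat3*, *Cd82*, *Plk3* and *Sertad1*) at an adjusted p below 0.05. The 14 called members are 42.4% of the 33, and 36.5% of all genes tested were called, with 19.4% called up and 17.1% called down. The median log2 fold change was 0.04 over the members and 0.02 over all genes tested. By role, all 7 genes of metabolism, secretion and other functions were called, 6 of them lower. In the other roles, 4 of 9 genes listed under apoptosis, 1 of 3 death receptors and 2 of 7 cell cycle genes were called. The repair genes had 0 of 4 called and the core genes 0 of 3. The role lists were chosen with earlier results of these data known, so these shares by role are a description. The number of called members was 9 when control replicate 1 was left out (30.1% of all genes). It was also 9 in the fit to the TGFβ and control libraries alone (30.2%). Scaling to library size alone gave 2 up and 11 down (36.5% of all genes). Without TGFβ replicate 2 there were 8 up and 9 down (36.9% of all genes): *Bax*, *Plk3* and *Sertad1* were no longer called, *Mdm2*, *Gtse1*, *Apaf1*, *Ei24* and *Polk* were called higher, and *Perp* was called lower.

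The inhibitor alone was followed by lower *Trp53*, *Mdm4*, *Plk2*, *Plk3* and *Perp* and by higher *Gdf15*. These 6 called members are 18.2% of the 33, and 8.27% of all genes tested were called (2.47% up and 5.80% down). The members' median was 0.02 and that of all genes was 0.01. In the fit to the control and inhibitor libraries alone, 15 members were called (9 up and 6 down), when 22.6% of all genes were. Leaving out control replicate 2, control replicate 3, the first inhibitor library or the third left 3 members, with 4.25%, 4.61%, 4.91% and 4.47% of all genes called. Leaving out TGFβ replicate 2, which is in neither group compared but enters the joint fit, gave 10 members, with 15.7% of all genes. Scaling to library size alone gave 0 up and 6 down (9.13% of all genes). The mitochondrial share of counts was 11.3% to 12.4% in the inhibitor libraries against 7.05% to 8.08% in the controls, and the share of *Malat1*, a nuclear RNA, was 3.29% to 3.58% against 2.01% to 2.13%. With TGFβ the mitochondrial share was 5.81% to 8.34% and that of *Malat1* 0.981% to 1.58%, and in the combined group they were 7.44% to 8.95% and 2.25% to 2.58%. The part of these shares in any of the comparisons was not tested.

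Adding the inhibitor to TGFβ gave lower *Mdm4*, *Pmaip1*, *Aen* and *Perp* and higher *Sertad1* and *Sesn3* than TGFβ alone. That is 6 of 33 members (18.2%), with 10.4% of all genes called (3.45% up and 6.97% down). The medians were -0.07 for the members and -0.02 for all genes. With only these 2 groups in the fit, 2 members were called (*Mdm4* and *Pmaip1*) and 3.19% of all genes. Leaving out 1 library added calls: *Bax* (adjusted p 0.0259), *Zmat3* (0.029) and *Cd82* (0.0156) were lower without TGFβ replicate 3, *Gtse1* (0.0392) and *Eda2r* (0.0279) were lower without TGFβ replicate 2, and *Bbc3* (0.0395) and *Gdf15* (0.0268) were higher without TGFβ replicate 1. *Gdf15* was also higher without combined replicate 2 (adjusted p 0.0383), and *Cd82* lower without combined replicate 1 (adjusted p 0.0477).

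TGFβ in the presence of the inhibitor, the combined group against the inhibitor alone, raised *Trp53*, *Plk2* and *Pmaip1* and lowered *Mdm4*, *Bbc3*, *Trp53inp1*, *Sesn1*, *Gdf15*, *Ephx1* and *Cd82*. The 10 called members are 30.3% of the 33, below the 36.3% of all genes (18.0% up and 18.3% down). The members' median was -0.16, against -0.00 for all genes. With only these 2 groups in the fit, 19 members and 45.2% of all genes were called. Without TGFβ replicate 2 the count was 17 (44% of all genes), with *Mdm2* (adjusted p 0.00774), *Btg2* (0.00982), *Apaf1* (0.00416) and *Rps27l* (0.00945) higher and *Ccng1* (0.00237), *Btg1* (0.0138) and *Zmat3* (0.00304) lower. *Btg2* was also called without TGFβ replicate 3, inhibitor replicate 2 or combined replicate 2 (adjusted p 0.0219 to 0.0489), *Zmat3* without TGFβ replicate 3 (adjusted p 0.0189) and *Fas* without combined replicate 2 (adjusted p 0.0151). The comparisons of either agent with control share the 3 control libraries, so they are given side by side and their likeness is not counted as a result.

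No member passed the test of whether the inhibitor acted differently with and without TGFβ (the interaction), where 1.11% of all genes did. In edgeR 4 of 33 members had an unadjusted p below 0.05, and so did 1420 of the 13581 genes tested. DESeq2 called 0 members (1.96% of all genes), and limma voom with quality weights called 1, *Plk2* (3.56% of all genes).

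**Figure D2:**
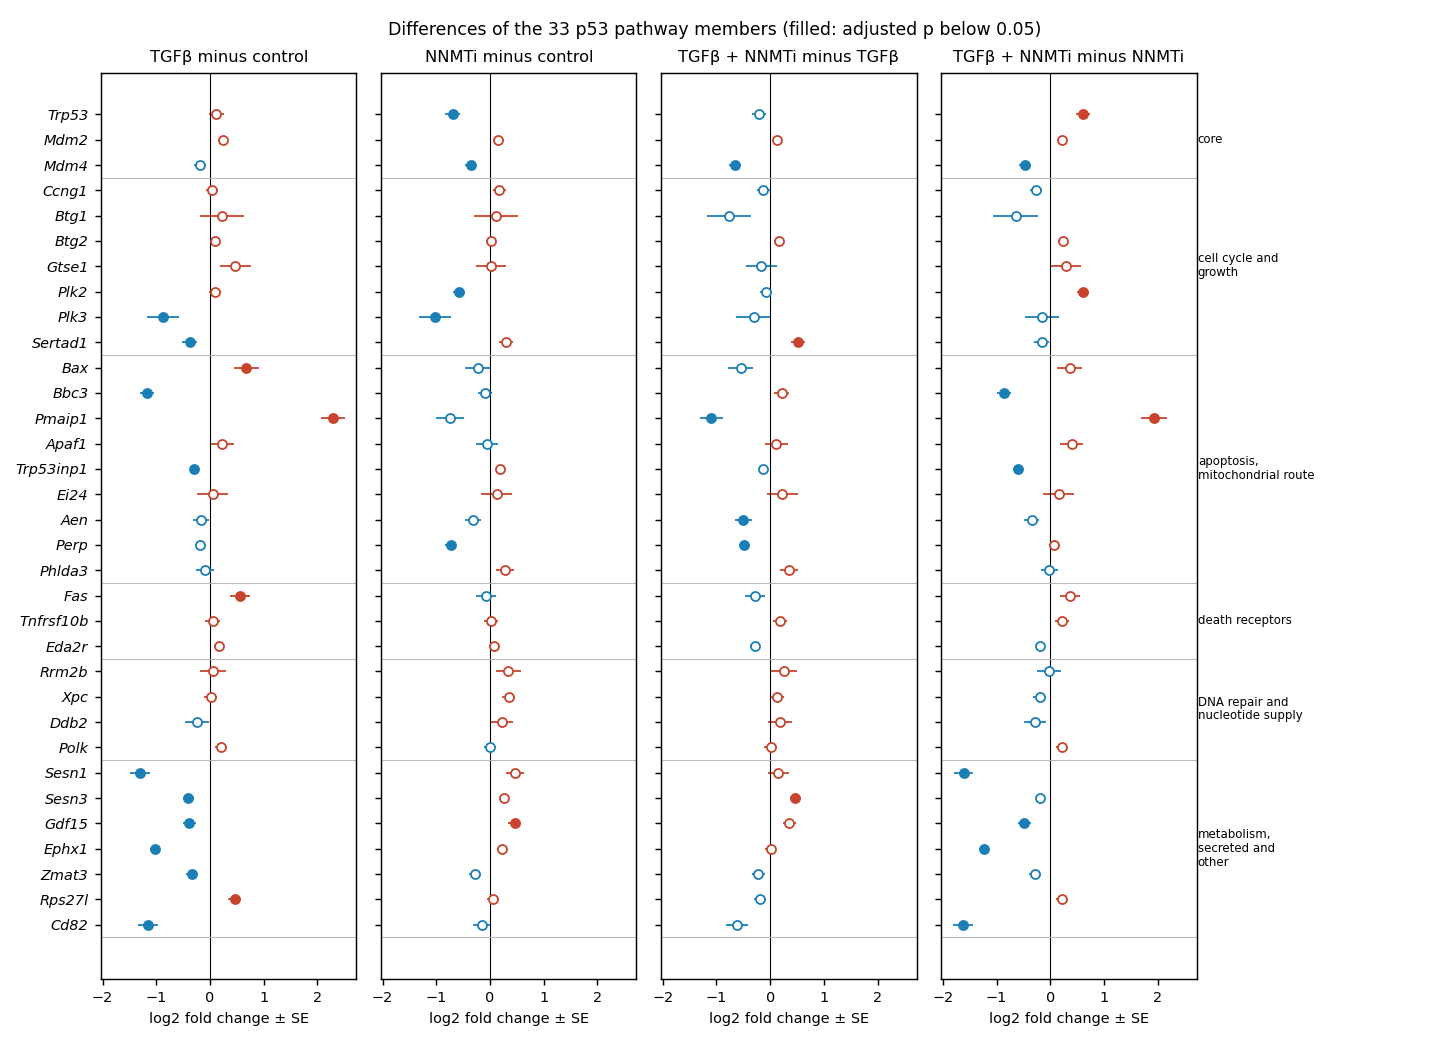
Log2 fold change (x axis) of each of the 33 members in 4 comparisons, grouped by role, with bars of 1 standard error from the edgeR fit. Filled points passed an adjusted p of 0.05. In the panel of TGFβ minus control, the lowest block (metabolism, secreted and other) holds 6 filled points left of 0 and 1 right. The block of apoptosis, mitochondrial route, also holds genes outside that route, such as *Phlda3*. The role lists were chosen with earlier results of these data known.

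The libraries themselves differed in ways that touch these counts. Depth ran from 2584117 counts in TGFβ replicate 3 to 11866903 in TGFβ replicate 2. The TGFβ libraries also differed most from each other, with a biological coefficient of variation of 0.227, where the controls had 0.0657, the inhibitor libraries 0.0885 and the combined libraries 0.111. TGFβ replicate 2 was the library farthest from the middle one for 18 of the 33 members, replicate 3 for 11 and replicate 1 for 4. Of the tubular epithelial markers listed, 17 of 21 had a count. Their summed level was 2822 to 2968 CPM in the controls, 3088 to 3280 CPM with the inhibitor, 2389 to 2741 CPM with TGFβ and 2237 to 2426 CPM in the combined group, but *Epcam*, *Slc34a1* and *Umod* were at 0 and *Cdh1*, *Aqp2* and *Slc12a3* had fewer than 12 counts in all. The fibroblast list summed to 12.1 to 15.7 CPM with TGFβ, 2.20 to 4.23 CPM in the combined group and at most 1.79 CPM in the others, almost all of it *Col1a2* and *Pdgfrb*, while the defining *Pdgfra*, *Lum*, *Tcf21* and *Thy1* were at 0 in every library. The immune list was led by *Csf1r* and summed to 75.5 to 80.1 CPM in the controls, 60.7 to 72.4 CPM with the inhibitor, 48.8 to 61.7 CPM with TGFβ and 29.1 to 32.8 CPM with both, while its defining *Adgre1*, *Cd79a* and *Tyrobp* were at 0. The part of these marker levels in the member results was not tested. In these bulk samples, a smaller share of cells making a transcript and less of it per cell cannot be told apart.

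Among the core genes, *Trp53* (ENSMUSG00000059552) was lowered by the inhibitor alone. Its level was 44.0, 41.6 and 39.5 CPM in control libraries, 25.4, 26.6 and 25.0 under the inhibitor, 47.9, 48.1 and 38.3 under TGFβ and 40.9, 32.7 and 44.1 with both agents. The 3 inhibitor libraries lay below the other 9 libraries, and the other groups overlapped each other. With the inhibitor alone *Trp53* fell (log2 fold change -0.70 ± 0.13, 1.62-fold lower, adjusted p 0.00235), and in the combined group it was higher than with the inhibitor alone (log2 fold change 0.61 ± 0.13, 1.53-fold higher, adjusted p 0.00145). TGFβ alone gave a log2 difference of 0.12 ± 0.13 (adjusted p 0.509), and adding the inhibitor to TGFβ gave a log2 difference of -0.21 ± 0.13 (adjusted p 0.338) with a 95% interval of -0.49 to 0.07. The difference between the inhibitor's effects with and without TGFβ was 0.49 ± 0.19 (adjusted p 0.326), so a different response in the 2 settings was not shown.

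*Mdm4* (ENSMUSG00000054387) was below the controls wherever the inhibitor was present, and lowest with both agents. It measured 114, 121 and 121 CPM in control libraries, 92.8, 105 and 79.4 under the inhibitor, 107, 99.9 and 106 under TGFβ and 66.2, 72.6 and 61.0 with both agents. All 3 combined libraries lay below the other 9. The inhibitor libraries lay below every control but overlapped the TGFβ libraries, which also lay below every control. Against TGFβ alone the combined group was lower (log2 fold change -0.65 ± 0.11, 1.57-fold lower, adjusted p 0.000999), as it was against the inhibitor alone (log2 fold change -0.47 ± 0.11, 1.39-fold lower, adjusted p 0.00245). *Mdm4* also fell with the inhibitor alone (log2 fold change -0.36 ± 0.11, 1.28-fold lower, adjusted p 0.047), and this call ended without control replicate 1, 2 or 3, inhibitor replicate 1 or 3, TGFβ replicate 1 or combined replicate 1 (adjusted p 0.0509 to 0.197, and 0.00124 to 0.197 over the 19 alternatives). *Mdm2* (ENSMUSG00000020184), the negative regulator that p53 itself raises, had 539, 559 and 566 CPM in control libraries, 622, 641 and 592 under the inhibitor, 694, 575 and 701 under TGFβ and 675, 774 and 706 with both agents. The control libraries were the lowest 3 and the combined group held the highest library. TGFβ gave a log2 difference of 0.24 ± 0.10 (adjusted p 0.0561), just outside the threshold, and it was called without TGFβ replicate 2 (adjusted p 0.00153). In the combined group against the inhibitor alone *Mdm2* gave a log2 difference of 0.22 ± 0.10 (adjusted p 0.0857).

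Of the cell cycle and growth genes, *Plk2* (ENSMUSG00000021701), a polo-like kinase, was lowered by the inhibitor alone. Its values were 175, 175 and 176 CPM in control libraries, 124, 114 and 113 under the inhibitor, 176, 175 and 214 under TGFβ and 198, 149 and 187 with both agents. The inhibitor libraries were the 3 lowest of the 12, with no overlap. *Plk2* fell with the inhibitor alone (log2 fold change -0.58 ± 0.11, 1.50-fold lower, adjusted p 0.00246) and was higher in the combined group than with the inhibitor alone (log2 fold change 0.61 ± 0.11, 1.52-fold higher, adjusted p 0.000297). Its interaction was 0.51 ± 0.16 (adjusted p 0.164) with a 95% interval of 0.18 to 0.84. That difference passed the threshold without TGFβ replicate 3 (adjusted p 0.0443), without combined replicate 2 (adjusted p 0.0468), and with the quality weights (adjusted p 0.00542).

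*Plk3* (ENSMUSG00000028680), a stress-responsive relative of *Plk2*, was scarce, with 7 to 81 counts per library. It stood at 5.47, 9.80 and 6.05 CPM in control libraries, 3.52, 3.31 and 3.60 under the inhibitor, 5.17, 3.19 and 2.68 under TGFβ and 3.01, 2.92 and 3.43 with both agents. All 3 control libraries lay above the other 9. It fell with TGFβ (log2 fold change -0.88 ± 0.30, 1.84-fold lower, adjusted p 0.0291) and with the inhibitor (log2 fold change -1.02 ± 0.29, 2.03-fold lower, adjusted p 0.0382). The first call was lost without control replicate 2 or TGFβ replicate 2 or 3 (adjusted p 0.0663 to 0.19, and 0.0112 to 0.403 over the 19 alternatives). The second was lost without control replicate 2 or 3 or inhibitor replicate 1, 2 or 3 (adjusted p 0.0642 to 0.242, and 0.00462 to 0.242 over the 19 alternatives). The annotated span of *Plk3* overlaps that of *Tctex1d4* on the other strand, and its count is uncertain to that extent unless counting used strand.

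*Sertad1* (ENSMUSG00000008384), a regulator of CDK4, showed 41.8, 47.0 and 45.3 CPM in control libraries, 51.0, 56.0 and 58.4 under the inhibitor, 38.2, 27.5 and 39.0 under TGFβ and 48.0, 54.2 and 45.6 with both agents. The TGFβ libraries were the 3 lowest and did not overlap any other group. TGFβ lowered it (log2 fold change -0.38 ± 0.14, 1.30-fold lower, adjusted p 0.039) and the combined group was higher than TGFβ alone (log2 fold change 0.52 ± 0.14, 1.43-fold higher, adjusted p 0.022). The fall with TGFβ was not called without control replicate 1, 2 or 3 or TGFβ replicate 2 (adjusted p 0.0511 to 0.17, and 0.0171 to 0.241 over the 19 alternatives). The rise in the combined group was not called without TGFβ replicate 2 or combined replicate 1 or 2 (adjusted p 0.0514 to 0.0825, and 0.00487 to 0.136 over the 19 alternatives). The other 4 genes of this role passed in no comparison. *Ccng1*, which encodes cyclin G1, ran from 333 to 492 CPM, *Btg2*, an antiproliferative gene, from 136 to 181 CPM, its relative *Btg1* from 52.0 to 203 CPM, and *Gtse1*, which works in G2 and S phase, from 83.9 to 244 CPM. Both extremes of *Ccng1*, *Btg1* and *Gtse1* were TGFβ libraries. Without TGFβ replicate 2, the lowest of the 3 for *Gtse1*, the rise of *Gtse1* with TGFβ was called (log2 fold change 0.78, adjusted p 0.000292).

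The 2 BH3-only killers of the mitochondrial route moved apart. *Pmaip1* (ENSMUSG00000024521), which encodes NOXA, was the least abundant member in the controls and rose most with TGFβ. It was at 4.13, 4.96 and 5.85 CPM in control libraries, 2.97, 3.90 and 2.07 under the inhibitor, 20.9, 23.6 and 30.2 under TGFβ and 11.7, 11.1 and 11.5 with both agents. The TGFβ libraries lay above every other library, the combined libraries lay between them and the remaining 6, and no group with TGFβ overlapped a group without it. TGFβ raised *Pmaip1* (log2 fold change 2.29 ± 0.22, 4.88-fold higher, adjusted p 2.19e-07), and it did so in the presence of the inhibitor (log2 fold change 1.94 ± 0.24, 3.84-fold higher, adjusted p 3.93e-06). The combined group was lower than TGFβ alone (log2 fold change -1.09 ± 0.21, 2.13-fold lower, adjusted p 0.00237), which missed the threshold without TGFβ replicates 2 and 3 together (-0.86, adjusted p 0.0512). The inhibitor alone gave a log2 difference of -0.75 ± 0.26 (adjusted p 0.0853), and the interaction was -0.35 ± 0.33 (adjusted p 0.781), so the lower level with both agents was not shown to differ from the inhibitor's effect without TGFβ.

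*Bbc3* (ENSMUSG00000002083), which encodes PUMA, went the other way. Its libraries gave 140, 139 and 161 CPM in control libraries, 138, 145 and 130 under the inhibitor, 81.2, 50.3 and 64.3 under TGFβ and 76.0, 71.7 and 79.2 with both agents. Every library without TGFβ was above every library with it. *Bbc3* fell with TGFβ alone (log2 fold change -1.17 ± 0.14, 2.25-fold lower, adjusted p 2.03e-06) and in the presence of the inhibitor (log2 fold change -0.86 ± 0.13, 1.82-fold lower, adjusted p 4.72e-05). *Bax* (ENSMUSG00000003873), a pore-forming effector of the mitochondrial route, had 28.3, 32.2 and 23.3 CPM in control libraries, 26.3, 24.6 and 20.4 under the inhibitor, 39.4, 61.2 and 29.1 under TGFβ and 34.8, 22.9 and 33.9 with both agents. TGFβ replicate 2 was far above the rest, and TGFβ replicate 3 lay below the highest control. The rise with TGFβ (log2 fold change 0.68 ± 0.23, 1.60-fold higher, adjusted p 0.0304) ended without control replicate 1 or 3 or TGFβ replicate 2 (adjusted p 0.0764 to 0.16, and 0.000165 to 0.16 over the 19 alternatives), and the log2 fold change was 0.34 without TGFβ replicate 2.

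Among the other genes listed under apoptosis, *Trp53inp1* (ENSMUSG00000028211), a p53 cofactor linked to autophagy, was lower with TGFβ. It read 366, 363 and 347 CPM in control libraries, 414, 413 and 400 under the inhibitor, 287, 317 and 275 under TGFβ and 271, 271 and 262 with both agents. Each library with TGFβ lay below each library without it. It fell with TGFβ (log2 fold change -0.29 ± 0.09, 1.22-fold lower, adjusted p 0.0125) and in the presence of the inhibitor (log2 fold change -0.61 ± 0.09, 1.52-fold lower, adjusted p 1.76e-05); the interaction was -0.32 ± 0.12 (adjusted p 0.32). With only the TGFβ and control libraries in the fit, the fall with TGFβ had an adjusted p of 0.0522.

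*Perp* (ENSMUSG00000019851), a membrane protein of cell junctions, followed the inhibitor instead. Its level was 285, 255 and 261 CPM in control libraries, 151, 155 and 176 under the inhibitor, 221, 259 and 228 under TGFβ and 157, 177 and 175 with both agents. All 6 libraries with the inhibitor lay below all 6 without it. It fell with the inhibitor alone (log2 fold change -0.73 ± 0.10, 1.66-fold lower, adjusted p 9.06e-05) and on top of TGFβ (log2 fold change -0.48 ± 0.10, 1.39-fold lower, adjusted p 0.00499), the latter with an adjusted p of 0.0693 in the fit to those 2 groups. *Perp* under TGFβ alone gave a log2 difference of -0.18 ± 0.10 (adjusted p 0.176), which was called without TGFβ replicate 2 (adjusted p 0.0217). *Aen* (ENSMUSG00000030609), a nuclease that is raised by p53, had 28.2, 27.4 and 24.2 CPM in control libraries, 19.6, 19.4 and 25.0 under the inhibitor, 22.5, 22.8 and 26.8 under TGFβ and 17.8, 16.5 and 16.0 with both agents. The combined libraries were the 3 lowest. Its difference from TGFβ alone (log2 fold change -0.50 ± 0.15, 1.41-fold lower, adjusted p 0.0412) sat near the threshold and ended without control replicate 1, 2 or 3, inhibitor replicate 1 or 2, TGFβ replicate 1 or 3 or combined replicate 1, 2 or 3 (adjusted p 0.0556 to 0.15, and 0.0311 to 0.226 over the 19 alternatives). The remaining 3 genes passed in no comparison. *Phlda3*, a repressor of Akt signalling, ran from 194 to 384 CPM, *Apaf1*, the scaffold of the apoptosome, from 32.2 to 66.9 CPM, and *Ei24* from 40.4 to 122 CPM. TGFβ replicate 2 was the lowest library for each of these 3 genes. Without it, the rises of *Apaf1* (log2 fold change 0.52, adjusted p 0.00241) and *Ei24* (0.37, adjusted p 0.0445) with TGFβ were called.

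*Fas* (ENSMUSG00000024778) was the 1 called gene of the 3 death receptors. It measured 14.1, 15.4 and 14.3 CPM in control libraries, 13.7, 13.5 and 14.1 under the inhibitor, 21.4, 18.8 and 25.6 under TGFβ and 21.1, 12.5 and 19.7 with both agents. The TGFβ libraries lay above all controls, and the combined libraries ran from below the controls to the TGFβ range. The rise with TGFβ (log2 fold change 0.56 ± 0.19, 1.47-fold higher, adjusted p 0.0251) ended without control replicate 1 or 3 or TGFβ replicate 1 or 3 (adjusted p 0.0581 to 0.0746, and 0.00387 to 0.0779 over the 19 alternatives). *Tnfrsf10b*, the mouse TRAIL receptor, ran from 41.1 to 61.0 CPM, and *Eda2r*, a receptor for an ectodysplasin, from 92.7 to 129 CPM, with no call for either. Of the repair and nucleotide genes, *Xpc* (35.2 to 54.2 CPM) and *Ddb2* (7.35 to 15.6 CPM), both sensors of DNA lesions in nucleotide excision repair, *Polk* (78.4 to 110 CPM), a lesion-bypass polymerase, and *Rrm2b* (8.08 to 17.5 CPM), a subunit of ribonucleotide reductase, were not called either. Their largest differences were 0.34 for *Xpc* with the inhibitor (adjusted p 0.0912), 0.34 for *Rrm2b* with the inhibitor (adjusted p 0.442), -0.28 for *Ddb2* in the combined group against the inhibitor (adjusted p 0.32) and 0.21 for *Polk* in the same comparison (adjusted p 0.151). Without TGFβ replicate 2, *Xpc* was called with the inhibitor (adjusted p 0.0398) and *Polk* with TGFβ (adjusted p 0.0498).

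The metabolic, secreted and other targets, a mixed list, held 6 of the 10 falls with TGFβ. *Sesn1* (ENSMUSG00000038332), a sestrin that restrains mTORC1, stood at 19.0, 17.9 and 16.1 CPM in control libraries, 25.4, 22.4 and 25.4 under the inhibitor, 8.83, 6.11 and 6.12 under TGFβ and 8.45, 7.53 and 7.92 with both agents. The 6 libraries with TGFβ were all below the 6 without it, and the inhibitor libraries were all above the controls. It fell with TGFβ (log2 fold change -1.30 ± 0.18, 2.46-fold lower, adjusted p 1.8e-05) and in the presence of the inhibitor (log2 fold change -1.61 ± 0.17, 3.06-fold lower, adjusted p 5.84e-07). The inhibitor alone gave a log2 difference of 0.47 ± 0.16 (adjusted p 0.0854), called without TGFβ replicate 2 (adjusted p 0.0393). The annotated span of *Sesn1* overlaps that of another gene on its own strand, so its count is uncertain to that extent. *Sesn3* (ENSMUSG00000032009), its relative, had 127, 121 and 106 CPM in control libraries, 139, 141 and 143 under the inhibitor, 87.0, 89.1 and 92.2 under TGFβ and 136, 118 and 117 with both agents. The TGFβ libraries were the 3 lowest, and the combined libraries overlapped the controls. *Sesn3* fell with TGFβ (log2 fold change -0.40 ± 0.10, 1.32-fold lower, adjusted p 0.00372) and was higher in the combined group than with TGFβ alone (log2 fold change 0.47 ± 0.10, 1.39-fold higher, adjusted p 0.00533), with an adjusted p of 0.0617 for the latter in the fit to those 2 groups. The inhibitor alone gave a log2 difference of 0.26 ± 0.10 (adjusted p 0.111), called without TGFβ replicate 2 (adjusted p 0.0447).

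*Gdf15* (ENSMUSG00000038508), a secreted stress cytokine, was the most abundant member in the controls at 1143 ± 77.7 CPM (SD, n = 3). Its libraries gave 1158, 1212 and 1059 CPM in control libraries, 1757, 1504 and 1453 under the inhibitor, 1005, 870 and 755 under TGFβ and 1063, 999 and 1314 with both agents. Inhibitor libraries were the 3 highest of the 12, all TGFβ libraries lay below all controls, and the combined group overlapped both the controls and the TGFβ libraries. It fell with TGFβ (log2 fold change -0.38 ± 0.12, 1.30-fold lower, adjusted p 0.02) and rose with the inhibitor (log2 fold change 0.46 ± 0.12, 1.37-fold higher, adjusted p 0.0249), and it was lower with both agents than with the inhibitor alone (log2 fold change -0.48 ± 0.12, 1.40-fold lower, adjusted p 0.00451). The first of these calls ended without control replicate 1 or 2 or TGFβ replicate 3 (adjusted p 0.0598 to 0.0861, and 0.000777 to 0.318 over the 19 alternatives). The second ended without control replicate 1, 2 or 3 or inhibitor replicate 1, 2 or 3 (adjusted p 0.0507 to 0.158, and 3.57e-06 to 0.158 over the 19 alternatives).

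*Ephx1* (ENSMUSG00000038776), a microsomal epoxide hydrolase, had 351, 362 and 361 CPM in control libraries, 420, 417 and 410 under the inhibitor, 184, 184 and 156 under TGFβ and 162, 178 and 189 with both agents. Libraries with and without TGFβ did not overlap, and the inhibitor libraries were the 3 highest. *Ephx1* fell with TGFβ (log2 fold change -1.03 ± 0.09, 2.04-fold lower, adjusted p 9.1e-08) and in the presence of the inhibitor (log2 fold change -1.24 ± 0.09, 2.36-fold lower, adjusted p 5.37e-09). *Cd82* (ENSMUSG00000027215), a tetraspanin known as a suppressor of metastasis, measured 35.4, 39.5 and 41.1 CPM in control libraries, 36.0, 36.1 and 32.7 under the inhibitor, 15.5, 22.0 and 12.2 under TGFβ and 13.7, 11.8 and 8.32 with both agents. Again every library with TGFβ lay below every library without it. *Cd82* fell with TGFβ (log2 fold change -1.16 ± 0.18, 2.23-fold lower, adjusted p 6.98e-05) and in the presence of the inhibitor (log2 fold change -1.62 ± 0.19, 3.08-fold lower, adjusted p 1.55e-06). Adding the inhibitor to TGFβ gave a log2 difference of -0.62 ± 0.20 (adjusted p 0.0544), which DESeq2 called (adjusted p 0.0381).

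*Rps27l* (ENSMUSG00000036781), a ribosomal protein relative induced by p53, was the single riser of this role with TGFβ. It had 214, 211 and 206 CPM in control libraries, 214, 226 and 214 under the inhibitor, 258, 359 and 248 under TGFβ and 267, 236 and 258 with both agents. All TGFβ libraries lay above all controls and inhibitor libraries, with replicate 2 apart from the other 2. The rise with TGFβ (log2 fold change 0.46 ± 0.12, 1.38-fold higher, adjusted p 0.00458) held without replicate 2, where the log2 fold change was 0.26 (adjusted p 0.0114). *Zmat3* (ENSMUSG00000027663), an RNA-binding protein, had 458, 458 and 450 CPM in control libraries, 391, 368 and 370 under the inhibitor, 347, 439 and 292 under TGFβ and 319, 309 and 302 with both agents. No treated library reached the controls, and the TGFβ libraries were spread over the whole range of the other treated ones. It fell with TGFβ (log2 fold change -0.34 ± 0.11, 1.26-fold lower, adjusted p 0.0269), which was no longer called without control replicate 1, 2 or 3 or TGFβ replicate 1 or 3 (adjusted p 0.0627 to 0.109, and 1.23e-05 to 0.109 over the 19 alternatives). With the inhibitor alone it gave a log2 difference of -0.27 ± 0.11 (adjusted p 0.16). That fall was called without TGFβ replicate 2 (adjusted p 0.00486) and in the fit to the 2 groups compared (adjusted p 0.000305).

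**Figure D3:**
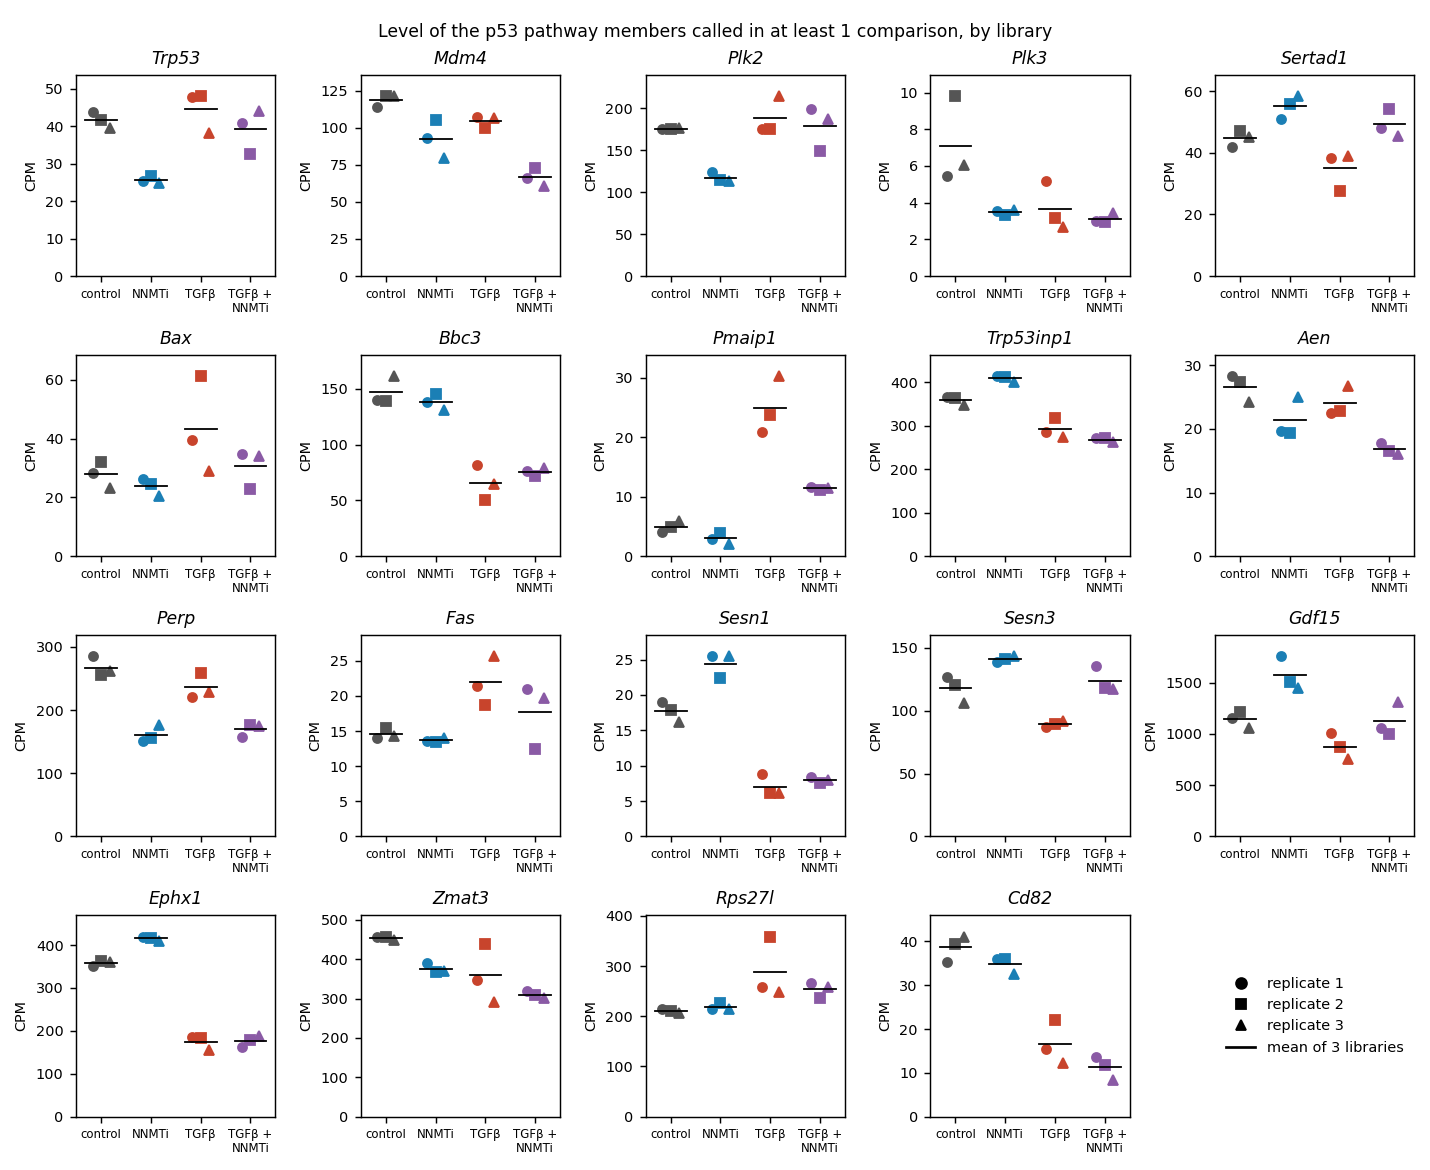
CPM of the 19 called members in each library (y axes from 0), by group on the x axis, with circles, squares and triangles for replicates 1, 2 and 3 and a line at the mean of 3 libraries. *Trp53*, *Plk2* and *Perp* were lowest in the inhibitor group or in both inhibitor groups, *Sesn1*, *Ephx1*, *Bbc3* and *Cd82* were low in both TGFβ groups, and *Pmaip1* was high in both.

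**Figure D4:**
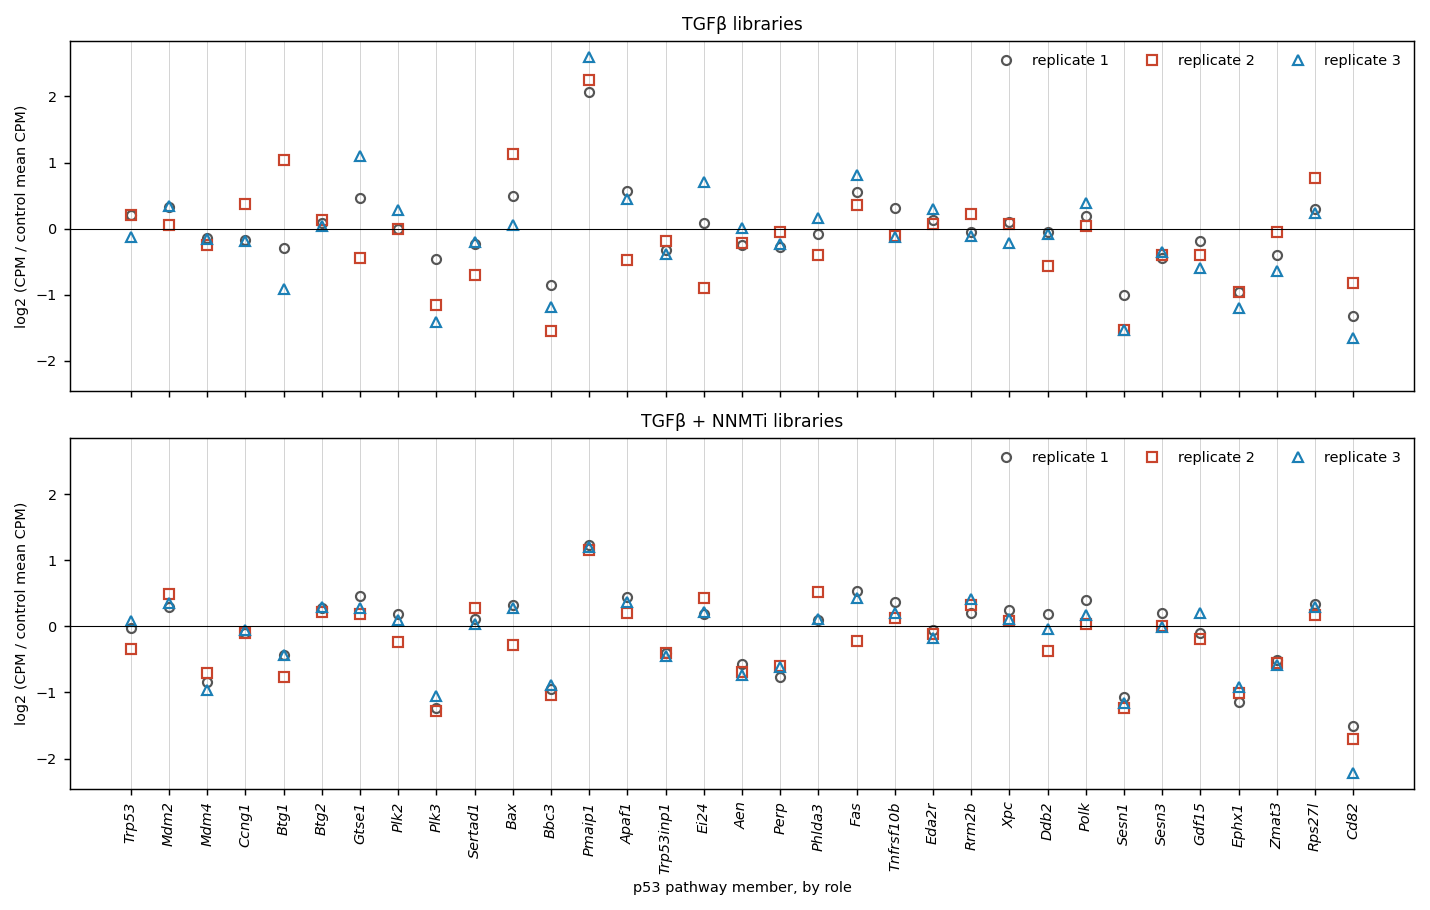
Log2 ratio of each library's CPM to the control mean (y axis) for the 33 members in role order (x axis), for the 3 TGFβ libraries above and the 3 combined libraries below. For *Btg1*, *Gtse1*, *Ei24* and *Bax* the TGFβ libraries fell far apart, while for *Pmaip1*, *Bbc3*, *Sesn1*, *Ephx1* and *Cd82* all 6 libraries lay on 1 side of 0.

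Of 29 further p53 targets tested from a list of 30, TGFβ raised 6 and lowered 10 (median -0.11), the inhibitor raised 3 and lowered 1 (median 0.04), the combined group had 2 higher and 4 lower than TGFβ (median -0.07) and 5 higher and 10 lower than the inhibitor (median -0.05). The shares called were 55.2%, 13.8%, 20.7% and 51.7%, where all genes had 36.5%, 8.27%, 10.4% and 36.3%. *Cdkn1a*, which encodes p21, the cycle inhibitor most closely tied to p53, had 1767, 1932 and 1933 CPM in control libraries, 2052, 2189 and 2085 under the inhibitor, 2559, 2454 and 1986 under TGFβ and 2168, 2303 and 2190 with both agents. Every treated library lay above every control, and TGFβ replicate 3 was the lowest of the treated ones. It rose with TGFβ (1.24-fold, adjusted p 0.0189), which was no longer called without control replicate 1 or TGFβ replicate 1 (adjusted p 0.0809 to 0.0971, and 0.000147 to 0.0976 over the 19 alternatives). The inhibitor alone gave a log2 difference of 0.17 ± 0.10 (adjusted p 0.36), called in the fit to those 2 groups (adjusted p 0.0219) and with the quality weights (adjusted p 0.0454). *Tgfa*, a ligand of the EGF receptor, fell with TGFβ (5.44-fold, adjusted p 1.56e-06) and in the presence of the inhibitor (5.23-fold, adjusted p 6.27e-07), and *Ndrg1*, a stress-response gene, fell in the same comparisons (2.34-fold, adjusted p 1.27e-08 and 3.79-fold, adjusted p 2.88e-11). Higher with TGFβ were *Tap1*, a peptide transporter (1.92-fold, adjusted p 5.31e-06), and *Lif*, a cytokine (3.11-fold, adjusted p 0.0322). That call for *Lif* was lost without control replicate 1, 2 or 3, inhibitor replicate 2 or 3 or TGFβ replicate 1 (adjusted p 0.0526 to 0.0942, and 0.00201 to 0.0942 over the 19 alternatives). Against the inhibitor alone *Lif* rose as well (7.72-fold, adjusted p 0.00161).

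The inhibitor raised *Gadd45a*, a growth arrest gene, both alone (1.56-fold, adjusted p 0.00221) and on top of TGFβ (2.57-fold, adjusted p 2.2e-06). It lowered *Rprm*, which encodes the G2 arrest mediator Reprimo, in both settings (2.36-fold, adjusted p 0.000161 and 2.43-fold, adjusted p 0.000355). *Cmbl*, a hydrolase, rose with the inhibitor alone (1.94-fold, adjusted p 0.00559). On top of TGFβ, *Triap1*, a survival factor, was higher (1.41-fold, adjusted p 0.00587), a call lost in the fit to those 2 groups (adjusted p 0.0728) and without TGFβ replicates 2 and 3 together (adjusted p 0.0546). *Dcxr*, a carbonyl reductase, was lower (1.61-fold, adjusted p 0.0459), which was lost without control replicate 1, 2 or 3, inhibitor replicate 1, 2 or 3, TGFβ replicate 2 or combined replicate 1, 2 or 3 (adjusted p 0.0535 to 0.316, and 0.0014 to 0.605 over the 19 alternatives). Without TGFβ replicate 2 its log2 fold change went from -0.68 to -0.29. *Dram1*, a lysosomal gene of autophagy, was higher in the combined group than with the inhibitor (1.53-fold, adjusted p 0.0388), a call lost without control replicate 2, inhibitor replicate 2 or 3 or combined replicate 1 or 3 (adjusted p 0.0525 to 0.181, and 0.00528 to 0.181 over the 19 alternatives).

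Of 22 tested regulators of p53 (24 listed), TGFβ raised 6 and lowered 2 (median 0.04), the inhibitor raised 1 (median -0.11), the combined group had 3 lower than TGFβ (median -0.05), and 5 higher and 3 lower than the inhibitor (median 0.05). The shares called, 36.4%, 4.55%, 13.6% and 36.4%, were near the 36.5%, 8.27%, 10.4% and 36.3% of all genes. The checkpoint kinase *Chek2* (1.74-fold, adjusted p 0.000265) and the nuclear corepressor *Daxx* (1.86-fold, adjusted p 2.46e-05) rose with TGFβ, and *Daxx* (1.66-fold, adjusted p 0.000208) and *Chek1* (1.63-fold, adjusted p 0.00156) were higher in the combined group than with the inhibitor. *Chek2* was lower in the combined group than with TGFβ (1.54-fold, adjusted p 0.0097), a call lost without combined replicate 2 (adjusted p 0.0617, and 0.00215 to 0.0943 over the 19 alternatives), as was *Rpl5*, a ribosomal protein that binds Mdm2 (1.55-fold, adjusted p 0.021), a call lost without TGFβ replicate 1 or combined replicate 2 or 3 (adjusted p 0.0514 to 0.113, and 0.00896 to 0.123 over the 19 alternatives). *Trp63*, the p53 relative of epithelial stem cells, fell from 79 counts over the 3 controls to 1 count under TGFβ, 67.5-fold by depth-scaled counts (11.8 to 2700, 95% counting interval), and from 56 under the inhibitor alone to 2 with both agents, 26.3-fold (6.96 to 223), with adjusted p 3.13e-05 and 0.000127. *Hipk2*, a kinase that phosphorylates p53, was lower with TGFβ (1.27-fold, adjusted p 0.0361), a call lost without control replicate 2 or 3 or TGFβ replicate 1 or 3 (adjusted p 0.0771 to 0.157, and 0.00289 to 0.157 over the 19 alternatives) and in the combined group against the inhibitor (1.26-fold, adjusted p 0.0425), a call lost without control replicate 1, 2 or 3, inhibitor replicate 1 or 2 or combined replicate 1, 2 or 3 (adjusted p 0.0519 to 0.16, and 0.00617 to 0.16 over the 19 alternatives). *Atr*, the kinase of the replication checkpoint, was higher with the inhibitor (1.35-fold, adjusted p 0.0308), a call lost without control replicate 1, 2 or 3, inhibitor replicate 1, 2 or 3 or combined replicate 1 (adjusted p 0.051 to 0.195, and 0.000659 to 0.195 over the 19 alternatives).

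Cell division genes, whose levels are lowered downstream of p53 and p21, formed a list of 34, all tested. With TGFβ 32 of 34 rose and 0 fell (median 0.82). With the inhibitor 0 rose and 6 fell (median -0.30). The combined group had 14 lower and 0 higher than TGFβ (median -0.38), and 29 higher and 0 lower than the inhibitor (median 0.66). These are 94.1%, 17.6%, 41.2% and 85.3% of the list, against 36.5%, 8.27%, 10.4% and 36.3% of all genes. In the interaction, 0 cell division genes, 0 regulators and 1 further target, *Ndrg1*, were called. The summed level of the list was 2349 to 2424 CPM in the controls, 1789 to 1971 CPM with the inhibitor, 4072 to 4084 CPM with TGFβ and 2982 to 3131 CPM in the combined group, so no 2 groups overlapped. *Cdc6*, which loads the replicative helicase, rose with TGFβ (3.03-fold, adjusted p 3.14e-06) and in the presence of the inhibitor (2.44-fold, adjusted p 4.88e-05), and *Bub1*, a spindle checkpoint kinase, rose with TGFβ (2.41-fold, adjusted p 1.71e-05). *Birc5*, which encodes survivin (1.66-fold, adjusted p 0.00277), and *Rrm2*, a subunit of ribonucleotide reductase (1.55-fold, adjusted p 0.0074), fell with the inhibitor, and *Rrm2* rose in the combined group against it (2.47-fold, adjusted p 5.42e-07). *Cdc6* (1.71-fold, adjusted p 0.0121) and *Bub1* (1.62-fold, adjusted p 0.0157) were lower in the combined group than with TGFβ. The *Cdc6* call ended without combined replicate 3 (adjusted p 0.085, and 7.41e-05 to 0.085 over the 19 alternatives), and the *Bub1* call without TGFβ replicate 2 or combined replicate 1 or 3 (adjusted p 0.0537 to 0.0602, and 0.00353 to 0.0855 over the 19 alternatives). The part of the share of dividing cells in the member values was not tested.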

How the data were processed

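The 12 libraries were made from 100 ng of RNA with the QuantSeq 3′ FWD kit, per the labels' protocols. The authors deposited 1 table of whole-number counts per mouse Ensembl gene; STAR, HTSeq and the build GRCh38, a human one, are named in the submitters' processing notes. Versions, the strand setting and the annotation are not given in the sources used here. HTSeq's summary lines, 21.12% to 26.78% of a library with no feature and 0.6127% to 0.8015% ambiguous, were left out of library sizes. Of the 33 members, 12 overlap another annotated gene, 6 of them (*Bax*, *Fas*, *Rrm2b*, *Sesn1*, *Ephx1*, *Cd82*) on the same strand, and their counts are uncertain to that extent.

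All groups were fitted together by edgeR 4.0.16 in R 4.3.3 (filterByExpr, TMM scaling, robust quasi-likelihood F-test), after a test on simulated data, with Benjamini-Hochberg adjustment over the 13581 genes and a threshold of 0.05. Values after ± are standard errors unless marked SD. CPM use TMM-scaled library sizes; 3 counts, taken as the floor, are 0.266 to 1.15 CPM. The alternatives were DESeq2 1.42.0, limma 3.58.1 (voom with quality weights), library size scaling, no low-count filter, only the 2 groups compared, a replicate block, each library left out, and TGFβ replicates 2 and 3 left out together. The members and lists were chosen with earlier results of these data known. Library values are printed for *Trp53*, *Mdm2*, *Mdm4* and every called member, and from each further list for *Cdkn1a* alone, with up to 2 called genes per direction and comparison named. Promoter windows came from RefSeq (GRCm38.p6).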

Additional observations from a re-analysis of the deposited data

Results flagged for a closer look

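*Ndrg1*, a p53 target and stress-response gene, was the single gene of the further p53 lists for which the inhibitor's effect differed between the 2 settings by a test of the difference itself. It had 459, 468 and 488 CPM in control libraries, 678, 698 and 671 under the inhibitor, 195, 229 and 178 under TGFβ and 183, 180 and 177 with both agents. The inhibitor raised it without TGFβ (log2 fold change 0.53 ± 0.09, adjusted p 0.00129) and gave -0.16 ± 0.10 with TGFβ (adjusted p 0.314). The difference between these effects was -0.69 ± 0.14 (adjusted p 0.0143, edgeR). It was not called without control replicate 1 (adjusted p 0.0648), control replicate 2 (0.068), inhibitor replicate 2 (0.0598) or combined replicate 3 (0.0512). No member was called for this difference in the same fit, and *Plk2* was called under 4 alternatives (adjusted p 0.00542 to 0.0468).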

How the results depend on the processing

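Of the 36 member calls, 21 held under every one of the 19 alternatives, 15 were lost under at least 1, and 0 changed direction. The cause of these changes was not tested, except that leaving out a library leaves fewer samples. With only the 2 groups compared, 9 members were called for TGFβ against control (30.2% of all genes) and 15 for the inhibitor (22.6%). There were 2 for the combined group against TGFβ (3.19%) and 19 for it against the inhibitor (45.2%). All genes called were 2931 for the inhibitor (1123 in the joint fit) and 408 for the combined group against TGFβ (1416). With voom quality weights the members called were 16 for the inhibitor, 19 for the combined group against the inhibitor and 1 for the interaction. All genes called were 3064 (22.6%), 6234 (45.9%) and 483 (3.56%). Without TGFβ replicates 2 and 3 together, members called were 14, 3, 19 and 1 for the inhibitor, the combined group against TGFβ, against the inhibitor and the interaction, and all genes were 2464, 1035, 6346 and 350. For the interaction, where 151 genes were called, DESeq2 called 266, and 306 were called with no low-count filter. Leaving out each library in turn gave 9 to 17 members for TGFβ (4038 to 5166 genes, 29% to 37.3%). For the inhibitor it gave 3 to 10 (591 to 2179 genes, 4.25% to 15.7%). For the combined group against TGFβ it gave 5 to 8 (762 to 1938 genes, 5.46% to 14%). Against the inhibitor the combined group had 10 to 17 (4098 to 6117 genes, 29.4% to 44%). The interaction had 0 to 1 (65 to 399 genes, 0.467% to 2.87%). No consistent pairing of the samples by replicate number was seen. Over 18 same-numbered pairs r ran from -0.0847 to 0.202. The 1 pair over 0.1 was inhibitor replicate 3 with TGFβ replicate 3. The libraries that correlated best with their own number in every other group numbered 0. With the replicate as a block, members called were 13, 5, 5, 10 and 0 in the 5 comparisons. All genes called were 4875 (35.9%), 1033 (7.61%), 1306 (9.62%), 4887 (36%) and 119 (0.876%). In that fit *Sertad1* with TGFβ, *Plk3* with the inhibitor and *Aen* in the combined group against TGFβ missed the threshold (adjusted p 0.054, 0.0592 and 0.0556). Scaling to library size moved the median log2 fold change of all genes most for TGFβ against control, from 0.0168 to -0.0719. Scarce members limit precision: in TGFβ replicate 3, the shallowest library, *Plk3* had 7 counts.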
